A study of Homo sapiens with 16 samples.

Results

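The *HDAC9* and *TWIST1* locus was followed here as all listed peaks on chromosome 7 that touch the window from 18.00 to 19.30 Mb, in the genome build GRCh37 (hg19) that the submitters' processing notes name. In this window *HDAC9* runs from 18.13 to 19.04 Mb and *TWIST1* from 19.15 to 19.16 Mb, positions that are rounded to 10 kb. The window held 110 of the 179689 peaks in the 8 lists of the series. It was chosen by measured values of these data, since the stitched cluster of H3K27ac peaks with the most covered length among those found in A2780 and not in A2780cis lies in *HDAC9*. That difference is therefore described below and not tested. With peaks up to 12.5 kb apart stitched, it covered 181.6 kb and stood at rank 1 of 3763 such clusters, and the next one, on chromosome 1, covered 179.6 kb. This rank depended on the stitching. At 5 kb, the longest piece in *HDAC9* covered 92.2 kb and stood at rank 8 of 6336, and at 25 kb the cluster, with the same 181.6 kb, stood at rank 5 of 2152.

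*HDAC9* codes for a class IIa histone deacetylase, a group of proteins with little deacetylase activity of their own that hold back MEF2 transcription factors in muscle, heart and nerve cells. *TWIST1* codes for a basic helix-loop-helix transcription factor of the early mesoderm and the neural crest, which in carcinoma cells is known as a driver of the epithelial-mesenchymal transition. The genes are neighbors, and in the vertebrate embryo parts of the *HDAC9* gene are known to act as distant enhancers of *TWIST1*. Acetylation of histone H3 at lysine 27 (H3K27ac) marks active enhancers and promoters, and that at lysine 9 (H3K9ac) is most marked around active start sites.

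A2780 is an ovarian cancer line from an endometrioid adenocarcinoma that is sensitive to platinum (cPt), and A2780cis is its resistant counterpart, kept in medium with 1 µM cPt. CAOV4 is a high-grade serous line, and CAOV4cis was derived from it by prolonged culture with rising cPt concentrations and was then kept with 1 µM cPt. The libraries labeled shMBD3.26 and shMBD3.232 come from A2780 cells in which a doxycycline-induced shRNA lowered MBD3, a subunit of the NuRD complex, for 1 week, and which were sorted for the GFP that the vector carries. H3K27ac was profiled in all these lines and H3K9ac in A2780 and A2780cis, with 1 library per condition, so that no difference between lines has a replicate check or a p-value. Cells with a control shRNA were not analysed here, so the shRNA libraries are set beside untransduced A2780 cells. Any effect of the Tet-on construct, transduction, drug selection, doxycycline and sorting cannot be told apart from that of MBD3. The lists held between 15365 and 28662 peaks each. They give the position and width of a peak but no signal, so a place without a listed peak can still carry acetylation under the authors' threshold, and the depth of sequencing is unknown.

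The shRNAs are given by their guide sequences, since they define these libraries.
shMBD3.26: aacaaggtcaagagcgacccgc
shMBD3.232: ttgctcatcagcatcttgcccg
The promoter table of RefSeq (GRCh38.p14) matched *HDAC9*, with 5 entries on the plus strand, each from 250 bases before to 50 bases after a start site. The upstream one and an internal one are printed because *HDAC9* starts at different places, and the lists hold a narrow peak near its outer start and wide peaks far inside the gene. Their positions are those of GRCh38.p14 and were not converted to hg19, so they are not set beside the positions of the lists. Capitals mark CTATTTTTA, a form of the MEF2 motif, and CATATG, an E-box of the kind bound by TWIST1, each searched on both strands.
*HDAC9* upstream promoter, chr7:18086575-18086874: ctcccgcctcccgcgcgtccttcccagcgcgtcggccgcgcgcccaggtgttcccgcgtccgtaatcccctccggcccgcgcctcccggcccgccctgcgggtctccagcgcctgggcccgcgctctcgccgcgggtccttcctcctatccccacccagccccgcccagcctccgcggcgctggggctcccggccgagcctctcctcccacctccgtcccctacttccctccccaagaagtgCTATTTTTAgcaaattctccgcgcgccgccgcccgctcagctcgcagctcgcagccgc
*HDAC9* internal promoter, chr7:18495499-18495798: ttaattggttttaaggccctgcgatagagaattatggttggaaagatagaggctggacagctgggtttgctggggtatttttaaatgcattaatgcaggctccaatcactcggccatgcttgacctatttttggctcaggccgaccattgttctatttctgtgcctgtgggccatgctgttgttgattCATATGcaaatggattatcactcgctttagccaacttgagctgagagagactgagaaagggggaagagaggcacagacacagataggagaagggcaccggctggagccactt
The upstream promoter had a GC content of 75.0% and 41 CpG dinucleotides, against medians of 58.7% and 14 over the 34943 promoters of this length. It held the MEF2 motif once, at base 243 from its 5′ end, and 0.455% of all promoters held it. The internal promoter had a GC content of 47.3% and 5 CpG dinucleotides, and it held CATATG once, at base 189, and 3.05% of all promoters held it. Of the 3 further internal entries, the one that starts 39 bases before it holds the same CATATG, and the other 2 hold neither motif. A match of letters is a description and not evidence of binding.

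In A2780, 27 H3K27ac peaks covered 215.6 kb of the window, or 16.6%. In A2780cis, no H3K27ac peak was listed in the window. In H3K9ac, 30 peaks covered 84.6 kb in A2780, and again none was listed in A2780cis. The lists of both shRNAs resembled that of A2780, with 27 peaks over 178.4 kb for shMBD3.26 and 19 peaks over 183.2 kb for shMBD3.232. CAOV4 had 3 peaks over 0.8 kb and CAOV4cis 4 peaks over 3.6 kb. Thus, the 4 lists from A2780 cells without prolonged cPt exposure were rich in peaks, and those of A2780cis and of the CAOV4 pair were nearly or wholly empty.

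**Figure D1:**
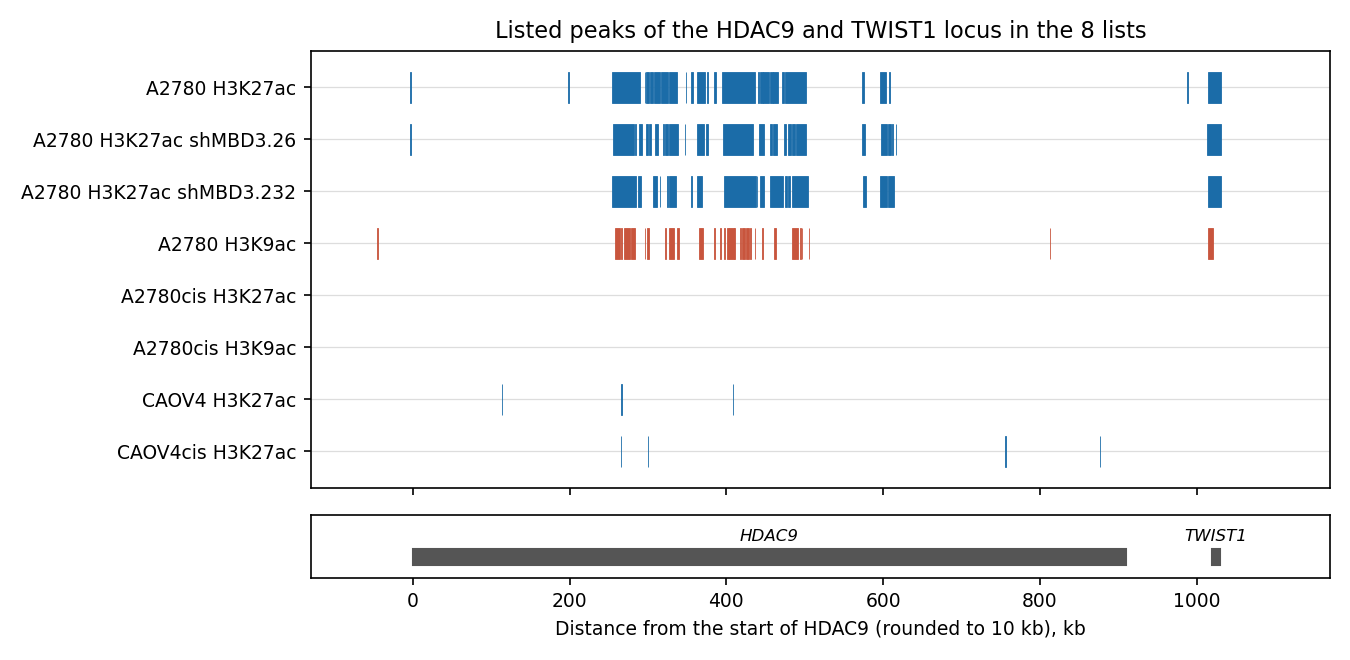
Every listed peak of the window in the 8 lists, drawn to scale with a thin outline and plotted by its distance in kb from the rounded start of HDAC9 (H3K27ac in blue, H3K9ac in red), over bars for both genes. The 4 lists of A2780 cells share a dense block inside HDAC9 and a peak that meets the rounded TWIST1 interval, and both A2780cis lists are empty.

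The rest of chromosome 7 served as the background of each list. There, the H3K27ac cover was 3.73% for A2780 and 3.79% for A2780cis, and that of H3K9ac was 2% and 2.12%. Outside the window, the A2780cis lists thus had no less of this chromosome covered than the A2780 lists, but with fewer peaks. On the whole chromosome, A2780cis had 1200 H3K27ac peaks against 1727 in A2780, and 885 H3K9ac peaks against 1283. Over the genome, the median peak width was 2800 bp in A2780cis against 2200 bp in A2780 for H3K27ac, and 2600 bp against 1600 bp for H3K9ac. CAOV4 and CAOV4cis peaks covered 2.69% and 3.22% of the rest of the chromosome, against 0.0615% and 0.277% of the window. In the 1.3 Mb just before the window, CAOV4 and CAOV4cis each had 38 peaks, which covered 11.6% and 14.0% of that stretch. The A2780 and A2780cis lists had 3 and 6 H3K27ac peaks there, with 0.862% and 1.29% covered. In the 1.3 Mb just after the window, peaks covered at most 1.29% in any list.

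**Figure D2:**
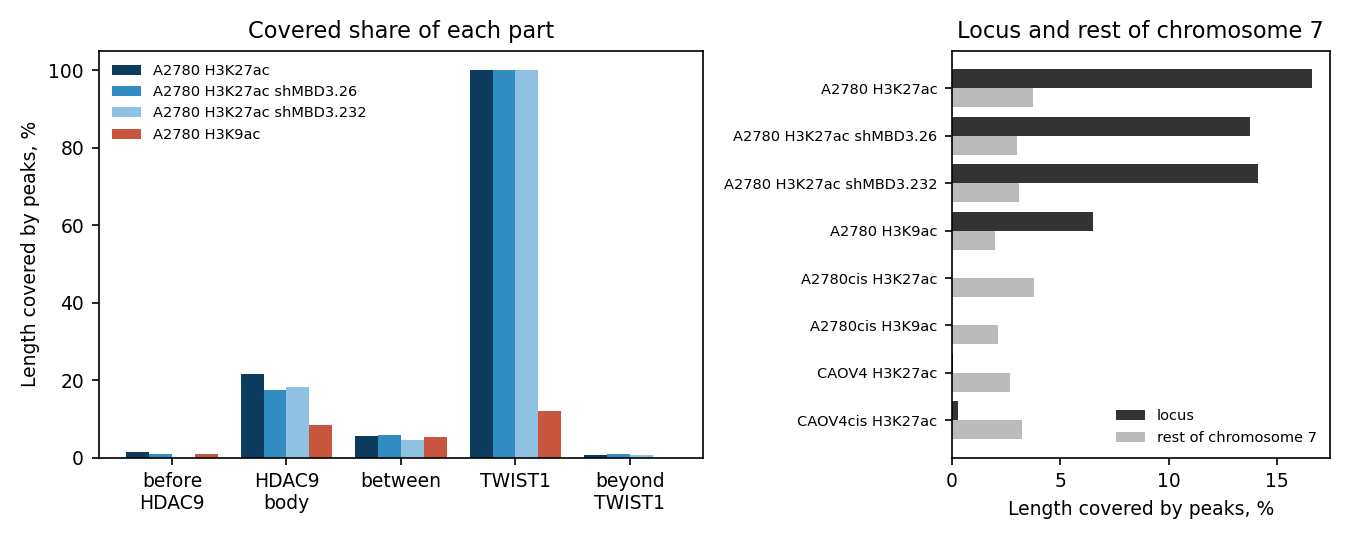
Left, the share in % of each part of the window that peaks cover, in the 4 lists of A2780 cells. Right, the covered share in % of the whole window (dark bars) and of the rest of chromosome 7 (gray bars) in all 8 lists, where only the 4 A2780 lists have more of the window covered than of the rest of the chromosome.

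All lists held a peak on both sides of the empty stretch of A2780cis. On the near side, this was the last peak before the window, which ran from 17975001 to 17981600 in A2780 and from 17977001 to 17981200 in A2780cis. These H3K27ac peaks measured 6.6 kb and 4.2 kb, and those of the other H3K27ac lists between 3.6 kb and 4.8 kb. On the far side, the peak ran from 19746401 to 19749600 in A2780 and from 19746801 to 19749200 in A2780cis, with widths of 3.2 kb and 2.4 kb. Between these peaks, 1765.6 kb of A2780cis were without H3K27ac peaks, and the H3K9ac list of A2780cis was empty over nearly the same 1767 kb. Beyond the window but within this stretch, A2780 had 1 further H3K27ac peak of 0.4 kb, from 19481601 to 19482000. The input libraries were not analysed here, so the lists do not show how much DNA of the locus was present in each line.

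By its length alone, this stretch was among the long ones but not the longest. Among the 20878 stretches between neighboring H3K27ac peaks of A2780cis, it ranked 221 by length. Ranked by the length that A2780 peaks cover inside, it stood at 6, with 216.8 kb. The 221 stretches of at least this length held a median of 0.6 kb of A2780 peaks, and the highest value was 359.0 kb, in a stretch on chromosome 2. In H3K9ac, the stretch ranked 278 by length and 18 by the 85.8 kb covered in A2780, among 15344 stretches. These ranks rest on the contrast that chose the locus.

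**Figure D3:**
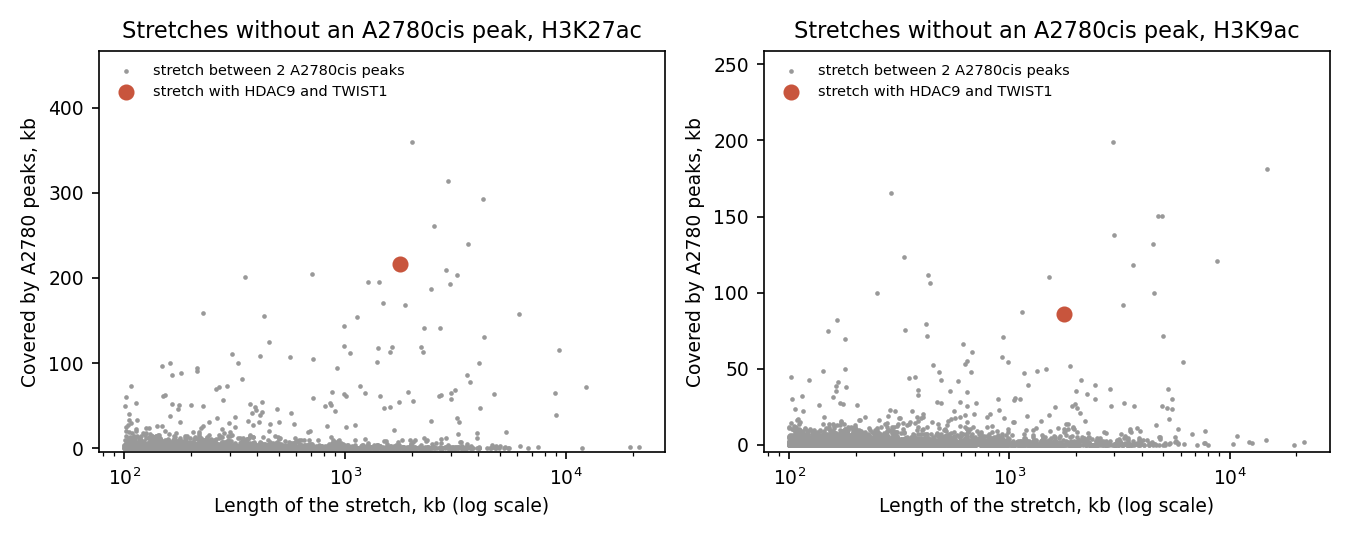
Each gray point is a stretch between neighboring A2780cis peaks of at least 100 kb, with its length in kb on a log axis and the length in kb that A2780 peaks of the same mark cover in it, for H3K27ac (left) and H3K9ac (right). The stretch with HDAC9 and TWIST1 (red) lies at 216.8 kb and 85.8 kb, far above the bulk of stretches in both marks and below the highest of them.

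Each region stands for the peaks of a pair of lists that touch each other by 1 bp or more. In H3K27ac, all 27 regions of the window were A2780-only, and in H3K9ac all 30 were. Over all regions of the genome, 38.1% were A2780-only in H3K27ac and 46.0% in H3K9ac. Nothing is read from these counts, since the window was chosen for this difference and neighboring regions are not independent.

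Inside *HDAC9*, the H3K27ac peaks of A2780 were not spread evenly. Its body of 910 kb had 24 peaks, which covered 196.4 kb or 21.6%. Of these, 20 peaks lay in the stitched cluster from 18384601 to 18631600, a span of 247 kb with 73.5% covered, which held 84.2% of the covered length of the window. By covered length, the cluster ranked 13 among the 14153 stitched H3K27ac clusters of A2780. The cluster was built around 3 wide peaks. The widest, at 18525001 to 18567000, had a width of 42.0 kb and stood at rank 69 among the 28662 peaks of A2780. The next ran from 18384601 to 18420400 with 35.8 kb and the third from 18604801 to 18631600 with 26.8 kb. Between them lay peaks of 10.2 kb, from 18457001 to 18467200, and of 10.6 kb, from 18492601 to 18503200. The other 15 peaks of the cluster measured between 0.4 kb and 8.8 kb.

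With the shRNAs, the places of the wide peaks were again mostly covered, but some of the wide peaks were listed in pieces. The widest was a single peak in each list and ran from 18525601 to 18564600 for shMBD3.26 and from 18526601 to 18567200 for shMBD3.232, with 39.0 kb and 40.6 kb. At the near end of the cluster, the wide peak ran from 18385601 to 18412200 for shMBD3.26, with 26.6 kb, and from 18384001 to 18414200 for shMBD3.232, with 30.2 kb. Both thus ended short of the A2780 peak, and narrower peaks of at most 3.6 kb followed in each list. The 26.8 kb peak at the far end of the cluster was met by 4 peaks for shMBD3.26 and by 3 for shMBD3.232. The widest of these ran from 18618601 to 18632000 with 13.4 kb and from 18613601 to 18634000 with 20.4 kb. The A2780 peak of 10.2 kb had a partner of 11.8 kb for shMBD3.26, from 18457001 to 18468800, and one of 9.2 kb for shMBD3.232. The A2780 peak of 10.6 kb had partners of 9.6 kb and 6.6 kb. In shMBD3.232, a further peak over 10 kb ran from 18585201 to 18602600 and measured 17.4 kb, where A2780 had 3 peaks of 2.6 kb to 6.0 kb. In the span of the cluster, the covered length was 142.8 kb for shMBD3.26 and 143.2 kb for shMBD3.232, or 57.8% and 58.0%. Stitched in the same way, these peaks did not form 1 cluster as in A2780 but 3 for shMBD3.26 and 4 for shMBD3.232. The ones with the most cover held 76.0 kb and 91.2 kb and stood at ranks 60 of 14043 and 59 of 11400 clusters. This division depended on the stitching. At 25 kb, the peaks for shMBD3.26 formed 1 cluster with 143.2 kb covered, and those for shMBD3.232 were divided into pieces of 55.0 kb and 91.2 kb. At 5 kb, the A2780 peaks were divided too.

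**Figure D4:**
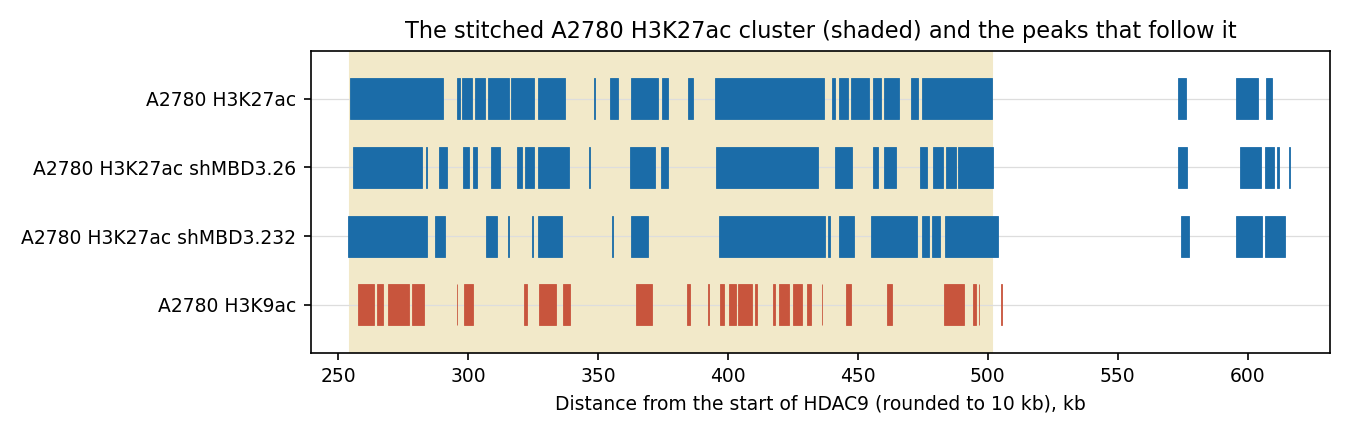
Peaks of the 4 lists of A2780 cells in and behind the stitched cluster (shaded), drawn to scale by distance in kb from the rounded start of HDAC9. The 42.0 kb H3K27ac peak of A2780 has a single partner with each shRNA, those of 35.8 kb and 26.8 kb are met by several, H3K9ac peaks are narrower and lie mostly inside H3K27ac peaks, and the H3K27ac peaks behind the cluster have no H3K9ac peak.

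Of the 27 H3K27ac peaks of A2780, 19 had a partner for shMBD3.26 and 17 for shMBD3.232. A further count, of peaks with no partner for either shRNA, gave 6, all narrow, between 400 bp and 1800 bp, with 6.6 kb in all. It was not made over the genome, so nothing is read from it. The 6 peaks of A2780 over 10 kb were covered to between 79.9% and 100% in shMBD3.26 and between 62.3% and 96.4% in shMBD3.232. In the other direction, 3 of 27 peaks for shMBD3.26 and 1 of 19 for shMBD3.232 had no partner in A2780, and none of these was wider than 1000 bp. Those with a partner made up 88.9% and 94.7%, beside 74.7% and 83.0% over the genome. Merged into regions, 8 of 29 were A2780-only against shMBD3.26, or 27.6% with a 95% Wilson interval from 14.7% to 45.7%, beside 34.0% over the genome. Another 3 of 29 were shMBD3.26-only, or 10.3% (3.58% to 26.4%), beside 18.0%. Against shMBD3.232, 10 of 25 regions were A2780-only, or 40% (23.4% to 59.3%), beside 40.1%, and 1 of 25 was shMBD3.232-only, or 4% (0.710% to 19.5%), beside 10.9%. Common regions made up 62.1% against shMBD3.26, beside 48.0% over the genome, and 56% against shMBD3.232, beside 49.0%. The intervals cover counting error only, and each includes the share over the genome. They treat neighboring regions as independent, which these are not, so the counts are a description and no verdict on the locus is drawn.

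The covered length of the window in A2780 was 1.21 times that for shMBD3.26 and 1.18 times that for shMBD3.232. On the rest of chromosome 7, the A2780 list also covered more, by 1.25 times and 1.21 times. The lists of the shRNAs thus had less cover than that of A2780 outside the locus too. Of the length covered in at least 1 of the 3 lists in the window, 58.7% was covered in all 3, against 44.3% over the genome. The window was chosen by the length that A2780 peaks cover in it, so nothing is read from this difference. The comparisons of both shRNAs share the A2780 library.

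Behind the cluster, still within the *HDAC9* body, a group of narrower H3K27ac peaks followed in the 3 lists. A2780 had peaks of 3.0 kb, from 18703201 to 18706200, of 8.2 kb, from 18725601 to 18733800, and of 2.2 kb, from 18737001 to 18739200. All of them had partners with both shRNAs. No H3K9ac peak was listed there, and neither CAOV4 line had a peak there. From the last peak in the gene body, 405.2 kb in A2780, 397.4 kb for shMBD3.26 and 400.8 kb for shMBD3.232 lay before the peak at *TWIST1*. In this interval, the 3 lists held a single further peak, one of 0.6 kb in A2780 from 19118401 to 19119000.

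At the outer start of *HDAC9*, the mark was sparse. A2780 had a peak of 2.0 kb from 18125801 to 18127800, close to the rounded start at 18.13 Mb, and shMBD3.26 had one of 1.4 kb from 18125801 to 18127200. No other list held a peak there, H3K9ac of A2780 included. Further inside, A2780 had a peak of 1.4 kb from 18328201 to 18329600 that no other list shared.

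*TWIST1* lay under 1 wide H3K27ac peak in each of the 3 lists of A2780 cells. It ran from 19144401 to 19161000 in A2780, with 16.6 kb, from 19143601 to 19161400 for shMBD3.26, with 17.8 kb, and from 19145001 to 19161200 for shMBD3.232, with 16.2 kb. Each of them covered 100% of the rounded *TWIST1* interval, and their borders differed by at most 1.4 kb. In A2780, this peak ranked 543 by width and formed a stitched cluster of its own. An H3K9ac peak ran from 19144201 to 19151200 in A2780, with 7.0 kb. It began 0.2 kb before the H3K27ac peak and reached 1.2 kb into the rounded interval of *TWIST1*, or 12% of it. The bounds of this interval are rounded to 10 kb, so whether the H3K9ac peak reaches the gene itself is not known. A2780cis, CAOV4 and CAOV4cis had no peak within 20 kb of *TWIST1*, and none of the 8 lists had a peak that began between 19.16 and 19.30 Mb.

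**Figure D5:**
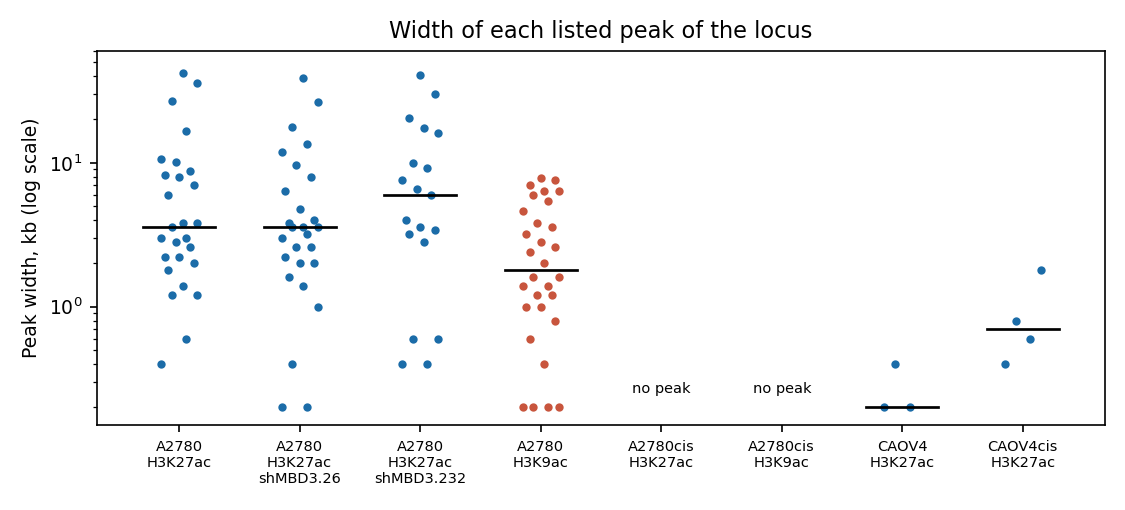
Width in kb, on a log axis, of each listed peak of the window by list, with the median as a line. H3K27ac peaks reach 42.0 kb, 39.0 kb and 40.6 kb in the A2780 lists, no H3K9ac peak is wider than 7.8 kb, and the CAOV4 pair has none over 1.8 kb.

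Within A2780, H3K9ac peaks were narrower and mostly nested in those of H3K27ac. The median width was 1800 bp, against 3600 bp for H3K27ac, and the widest H3K9ac peak measured 7.8 kb, from 18399401 to 18407200. Of the 30 H3K9ac peaks, 21 lay wholly inside an H3K27ac peak, 5 partly and 4 outside. The 4 outside were between 0.2 kb and 1.4 kb wide. In length, 92.7% of the H3K9ac cover lay in H3K27ac peaks, against 78.7% over the genome. The H3K27ac peaks of shMBD3.26 and shMBD3.232 held 89.4% and 83.7% of the same H3K9ac cover of A2780, against 70.9% and 71.2% over the genome. Conversely, 36.4% of the H3K27ac cover of A2780 carried an H3K9ac peak, against 44.0% over the genome. The window was chosen by its H3K27ac cover in A2780, so these shares are described and not read as a trait of the locus. H3K9ac was found at all 6 H3K27ac peaks over 10 kb and at 6 of the 21 others, or 28.6%. Over the genome, 95.6% of the H3K27ac peaks of A2780 over 10 kb and 42.1% of the others met an H3K9ac peak, so a wide peak with H3K9ac was usual in this list. The 42.0 kb peak held 9 H3K9ac peaks over 20.4 kb, the 35.8 kb peak held 4 over 21.2 kb and the 26.8 kb peak held 3 over 8.8 kb. The share of an H3K27ac peak over 10 kb that H3K9ac covered lay between 32.8% and 70.6%. The H3K27ac peaks with H3K9ac had a median width of 9500 bp and those without it of 2600 bp, so that a wider peak also had more room to meet an H3K9ac peak.

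The 7 peaks of the CAOV4 pair in the window were all narrow. CAOV4 had peaks from 18243601 to 18243800, from 18396001 to 18396400 and from 18538201 to 18538400. CAOV4cis had peaks from 18395201 to 18395800, from 18429801 to 18430600, from 18885401 to 18887200 and from 19006601 to 19007000. None of them overlapped between these lines, so 3 of 7 regions were CAOV4-only and 4 of 7 were CAOV4cis-only, beside 29.1% and 33.8% over the genome. With 7 regions, these shares had Wilson intervals from 15.8% to 75.0% and from 25% to 84.2%. Of the 7 peaks, 4 lay in both an H3K27ac and an H3K9ac peak of A2780. Over the genome, 46.5% of CAOV4 peaks and 44.3% of CAOV4cis peaks met an H3K27ac peak of A2780, and 35.6% and 33.3% met an H3K9ac peak. A peak of CAOV4 and a peak of CAOV4cis fell into the 35.8 kb peak of A2780, at positions no more than 0.2 kb apart, and a further CAOV4 peak fell into the 42.0 kb peak.

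Merged over the 8 lists, the window held 34 regions. A peak in all 4 lists of A2780 cells was found at 9 of them and one in all 3 H3K27ac lists of these cells at 13. Of the others, 14 regions rested on 1 list alone, and none of those was wider than 1.8 kb. Regions of the 8 lists were not counted in this way over the genome, so nothing is read from these numbers. The pattern of the whole window over the 8 lists was set beside that of 464 other windows of 1.3 Mb with a covered share in at least 1 list of 0.5 times its highest share or more. The most similar windows lay on chromosome 3 at 45500001 to 46800000, on chromosome 2 at 76700001 to 78000000 and on chromosome 1 at 75400001 to 76700000, with Pearson's r of 0.997, 0.997 and 0.996 over the 8 lists. The lists share cell lines, so r is only a description. In the window on chromosome 2, H3K27ac peaks covered 19.4% in A2780 and 0% in A2780cis, and CAOV4 had none. In the windows on chromosomes 3 and 1, A2780cis H3K27ac peaks covered 2.12% and 1.25%, against 11.1% and 9.68% in A2780.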

How the data were processed

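The members and lists described here were chosen with earlier results of these data known. Chromatin cut to mononucleosomes, with 5% of *D. melanogaster* chromatin added, was precipitated and sequenced. Reads were mapped by the authors on the Galaxy platform (Bowtie2), normalized by quantiles in R and turned into a peak list for each sample by MACS2. The build GRCh37 (hg19) is that of the submitters' processing notes. The deposited lists give the start and end of each peak in bp and no signal, and the deposited score is 0 in every row. Except in 1 row, boundaries lie on a grid of 200 bp, and 6 peaks off the standard chromosomes were left out. Widths were added to give covered lengths, touching peaks of 2 lists (1 bp or more in common) were joined to regions, and peaks up to 12.5 kb apart were stitched. The rest of chromosome 7 is its span between the first and last listed peak of all lists, without the window. Shares of counts carry 95% Wilson intervals. Positions of the genes are those of the rule that defines the window. Named are all peaks over 10 kb, those within 20 kb of *TWIST1* and all A2780cis peaks, and other peaks given by position were chosen after their values were seen. Windows of like pattern were taken by the highest Pearson r. Gene models of hg19 were not used here, so markers and other genes set in the plan were not looked up. Calculations used Python 3.11.15, numpy 2.4.6 and SciPy 1.17.1, with figures by matplotlib 3.10.9, and the merging was tested on simulated lists.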

Additional observations from a re-analysis of the deposited data

Results flagged for a closer look

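In the complete lists, the cell line pairs differed in opposite directions. From A2780 to A2780cis, the H3K27ac cover of the window fell by 215.6 kb, and from CAOV4 to CAOV4cis it rose by 2.8 kb. The window was chosen by the former value. With 1 library per line, this difference was not tested. The rise in the CAOV4 pair rests on 7 peaks, none wider than 1800 bp, and with peaks over 2 kb only both CAOV4 lines were at 0 kb.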

How the results depend on the processing

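The A2780cis lists are empty in the window, so the alternatives could not change their values. Of 111 alternative values, 68 differed from the reported ones, and 38 did so by more than 1.5 times, for counts, or by more than the 95% Wilson interval of the covered share. Neighboring positions in a peak are not independent, so this limit only sorts the values and is not a test. These 38 follow. Limited to the *HDAC9* body, the covered length was 196.4 kb in A2780 H3K27ac, 76.2 kb in A2780 H3K9ac, 159.2 kb for shMBD3.26 and 167.0 kb for shMBD3.232. With peaks over 2 kb only, 14 A2780 H3K9ac peaks over 69.6 kb were left, all 14 of them A2780-only regions. CAOV4 and CAOV4cis then had 0 peaks, 0 kb and 0 regions, A2780-only regions numbered 4 against shMBD3.26 and 5 against shMBD3.232, and 0 regions were found with either shRNA alone. With each list limited to its 15365 widest peaks, CAOV4 had 0 peaks, 0 kb and 0 regions, and CAOV4cis had 1 peak of 1.8 kb, which was 1 CAOV4cis-only region. A2780-only regions then numbered 2 against shMBD3.26 and 6 against shMBD3.232, and 0 regions were found with either shRNA alone. With peaks up to 5 kb apart joined, there were 12 A2780-only regions in H3K27ac and 14 in H3K9ac, and 1 region was common to the CAOV4 pair. Against shMBD3.26 there were 3 A2780-only, 8 common and 0 shMBD3.26-only regions, and against shMBD3.232 there were 5, 6 and 0. The covered length of the longest run of A2780-only peaks was 92.2 kb when stitched at 5 kb, since the run is then divided, and 181.6 kb at 25 kb. With H3K27ac peaks widened by 1 kb on each side, 95.7% of the H3K9ac cover lay inside them. With an overlap of 50% of the shorter peak required, no region count changed by more than 1.5 times. Against shMBD3.26, there were then 10 A2780-only, 17 common and 4 shMBD3.26-only regions, and against shMBD3.232 there were 11 A2780-only ones. No paired analysis was possible because each condition has 1 library.

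The counts of narrow peaks, and with them all values of the CAOV4 pair in the window, thus depended on the choice of peaks. The alternatives that drop narrow peaks keep wide ones by construction. The lists hold no signal and no counts of reads, so the precision of a single border is unknown, and a listed width is known only to the step of the grid.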
